A study of Rattus norvegicus with 4 samples.

Results

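Rat liver miRNAs miR-193 and miR-365, the products of neighbouring hairpins on chromosome 10, were followed in small RNA libraries of fibrotic and normal liver. The members were taken by name: rno-miR-193, rno-miR-365 and rno-miR-365*, the last being the arm of the miR-365 hairpin that the older naming marks as minor. All 3 names are listed in each of the 4 deposited files, among 680 names in all, of which 294 were above 0 in at least 1 file. The files fall by tissue label into 2 of hepatic fibrosis and 2 of normal liver, from total RNA of whole tissue. Strain, sex, age, the agent that caused the fibrosis and whether replicates came from separate animals are not stated in the labels, so any p-value measures only the spread between these files. In whole tissue, fewer cells of a type and less of a miRNA per cell cannot be told apart.

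MicroRNAs are cut from hairpin precursors, and each hairpin can give a product from its 5′ arm and one from its 3′ arm. Usually one of these is loaded into Argonaute and kept while the other is degraded, and the loaded strand finds its target messenger RNAs mainly through its seed, bases 2 to 8. The miR-193 and miR-365 hairpins lie close together in mammalian genomes. The known link to brown fat cell differentiation is that of miR-193b, a paralog of miR-193, with miR-365. Whether that link holds for miR-193 itself was not tested. miR-193 is known to repress growth and survival genes such as Mcl1, and miR-365 to repress the cell cycle gene Ccnd1 and the cytokine gene Il6.

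The sequences below show that these neighbours are unrelated in seed. All 3 members, and miR-193* from the other arm of the miR-193 hairpin, were matched by name to mature sequences in RefSeq (build GRCr8), here written 5′ to 3′ with the seed in capitals. Mir193b, a paralog elsewhere on chromosome 10, is shown because it carries the same seed as miR-193.
miR-193 (rno-miR-193a-3p): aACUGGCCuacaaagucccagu
miR-193b (rno-miR-193b-3p): aACUGGCCcacaaaguccc
miR-193* (rno-miR-193a-5p): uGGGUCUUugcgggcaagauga
miR-365 (rno-miR-365-3p): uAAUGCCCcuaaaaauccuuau
miR-365* (rno-miR-365-5p): gAGGGACUuucaggggc

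Among 724 mature entries of the RefSeq table, only miR-193b-3p shared the seed of miR-193, and 0 others shared the seed of miR-365, miR-365* or miR-193*. Over the 19 bases of the shorter entry, miR-193a-3p and miR-193b-3p matched at 18, with the single substitution U9C (miR-193a-3p first, positions counted from its 5′ end). The name miR-193b has no row of its own here and was not analysed. How reads that match both were assigned is not stated in the labels, so the miR-193 values may hold reads of either.

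The hairpins are shown next because the arm from which the reads came is part of the result. Mir193 lies at chr10:65170317-65170402 and Mir365b at chr10:65184217-65184302, both on the plus strand of GRCr8 and 13814 bases apart. Both fall within the annotated span of the protein-coding gene Faul2, whose exons the table used here does not give. The mature arms are in capitals, the 5′ arm (the starred name) first and the 3′ arm second.
Mir193: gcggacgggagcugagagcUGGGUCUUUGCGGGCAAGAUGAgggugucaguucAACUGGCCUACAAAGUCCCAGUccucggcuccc
Mir365b: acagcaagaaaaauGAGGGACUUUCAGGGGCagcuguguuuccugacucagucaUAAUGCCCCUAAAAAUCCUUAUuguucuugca

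The files hold fewer libraries than labels. Fibrosis replicate 2 and normal replicate 2 have 0 differing values, so they were counted once and are called the double-deposited library, and which tissue it came from is not known. That leaves fibrosis replicate 1 and normal replicate 1 as the libraries that each carry 1 label, plus the shared one. The authors' values are reads per 1000000 reads (RPM), and whole reads could be recovered from them: the scaling totals were 6951148, 7070374 and 6357069 reads in fibrosis replicate 1, normal replicate 1 and the double-deposited library. A count of 0 was taken to allow up to 3 reads, which is 0.432, 0.424 and 0.472 RPM in these. Intervals below are exact (Clopper-Pearson) 95% binomial intervals of the reads and cover only the error of counting, because reads copied by PCR without molecular identifiers need not stand for separate molecules. The liver label was matched by its defining miRNA, miR-122, at 243915 to 263140 RPM.

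miR-193 was the most abundant member in every library and was lowest in fibrosis replicate 1. Fibrosis replicate 1 had 21.4 RPM (149 reads, interval 18.1 to 25.2), normal replicate 1 had 30.1 RPM (213 reads, 26.2 to 34.5) and the double-deposited library had 34.6 RPM (220 reads, 30.2 to 39.5). The interval of fibrosis replicate 1 lay below those of the other libraries, which overlapped each other. By level miR-193 was in place 56, 47 and 46 of the 680 names in these libraries. In mean level over the 3 distinct libraries it stood between miR-181a (29.3 RPM) and miR-23b (27.6 RPM).

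miR-365 was read far less, and its order over the libraries was another one. The level was 3.30 RPM in the double-deposited library (21 reads, 2.04 to 5.05), 4.46 RPM in fibrosis replicate 1 (31 reads, 3.03 to 6.33) and 7.21 RPM in normal replicate 1 (51 reads, 5.37 to 9.48). The library with the highest miR-193 thus had the lowest miR-365. Only the intervals of normal replicate 1 and the double-deposited library were separate. Its neighbours in mean level were miR-28* (5.19 RPM) and miR-93 (4.76 RPM).

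miR-365* followed the order of miR-365 at a higher level. The level was 3.78 RPM in the double-deposited library (24 reads, 2.42 to 5.62), 8.92 RPM in fibrosis replicate 1 (62 reads, 6.84 to 11.4) and 12.3 RPM in normal replicate 1 (87 reads, 9.86 to 15.2). The double-deposited library lay below the intervals of both others, which overlapped. Its neighbours in mean level were miR-146a (9.46 RPM) and miR-375 (8.23 RPM). The 3 members together held 0.00690%, 0.00961% and 0.00794% of the reads on listed miRNAs in fibrosis replicate 1, normal replicate 1 and the double-deposited library.

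**Figure D1:**
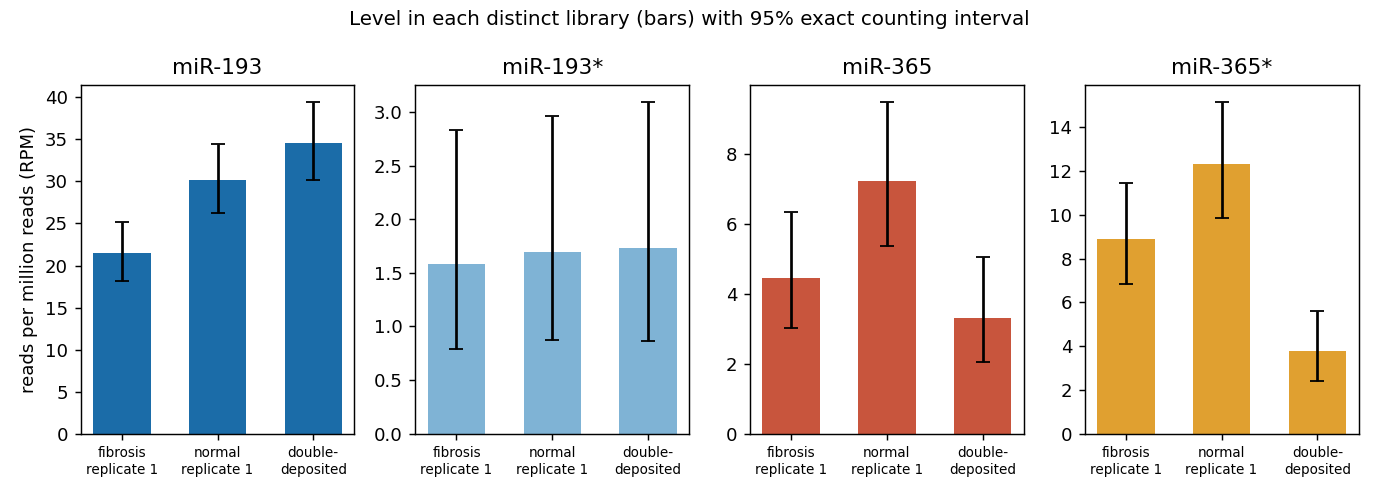
RPM (vertical axes, from 0, a separate scale in each panel) of miR-193, miR-193*, miR-365 and miR-365* in the 3 distinct libraries, with bars for the level and whiskers for the 95% exact counting interval. miR-193 is highest in the double-deposited library at 34.6 RPM, where miR-365 and miR-365* are lowest at 3.30 and 3.78 RPM.

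The study's question, which miRNAs differ between fibrotic and normal liver, can be asked of the labelled libraries only as 1 against 1, which gives no replicate check and no test of the tissues. All 3 members were lower in fibrosis replicate 1 than in normal replicate 1. The ratio was 0.712 for miR-193 (0.573 to 0.881), 0.618 for miR-365 (0.382 to 0.985) and 0.725 for miR-365* (0.515 to 1.02). The intervals of 2 of the 3 lay below 1. Of the 147 miRNAs that averaged 1 RPM or more over these 2 libraries, 22.4% had an interval below 1, 95 were lower, and the median ratio was 0.916, so lower values were common across the table. The members were in place 24 (miR-193), 13 (miR-365) and 28 (miR-365*) from the lowest ratio. The interval of miR-365 took in 1 when reads were scaled by TMM (0.648, 0.401 to 1.03), by DESeq2 size factors (0.647, 0.400 to 1.03) or by reads on listed miRNAs (0.633, 0.392 to 1.01). That of miR-365* lay below 1 with upper-quartile scaling (0.690, 0.490 to 0.966) and with miR-122 left out of the total (0.705, 0.501 to 0.988).

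Against the double-deposited library the neighbours parted. miR-193 in fibrosis replicate 1 was 0.619 of its level there (0.500 to 0.766), while miR-365* was 2.36 times its level there (1.45 to 3.96) and miR-365 1.35 times (0.751 to 2.47). In this pair 20.4% of 147 miRNAs had an interval below 1 and 22.4% had one above 1. miR-365* had the 9th highest ratio of the 147, and miR-193 the 18th lowest.

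Normal replicate 1 stood further from the double-deposited library for both miR-365 arms. miR-365 was 2.18 times its level there (1.29 to 3.82) and miR-365* 3.26 times (2.05 to 5.36), whereas miR-193 was 0.871 (0.718 to 1.06), an interval that included 1 with the deposited scaling. With DESeq2 size factors (0.804, 0.663 to 0.975) and upper-quartile scaling (0.790, 0.651 to 0.958) the interval of miR-193 lay below 1. These scalings lower every ratio of this pair alike. The share of all miRNAs with an interval below 1 was not counted for it, so these intervals have no background. Intervals above 1 were found for 29.7% of the 148 miRNAs that averaged 1 RPM or more in this pair. miR-365* had the 7th highest and miR-365 the 15th highest ratio of these.

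**Figure D2:**
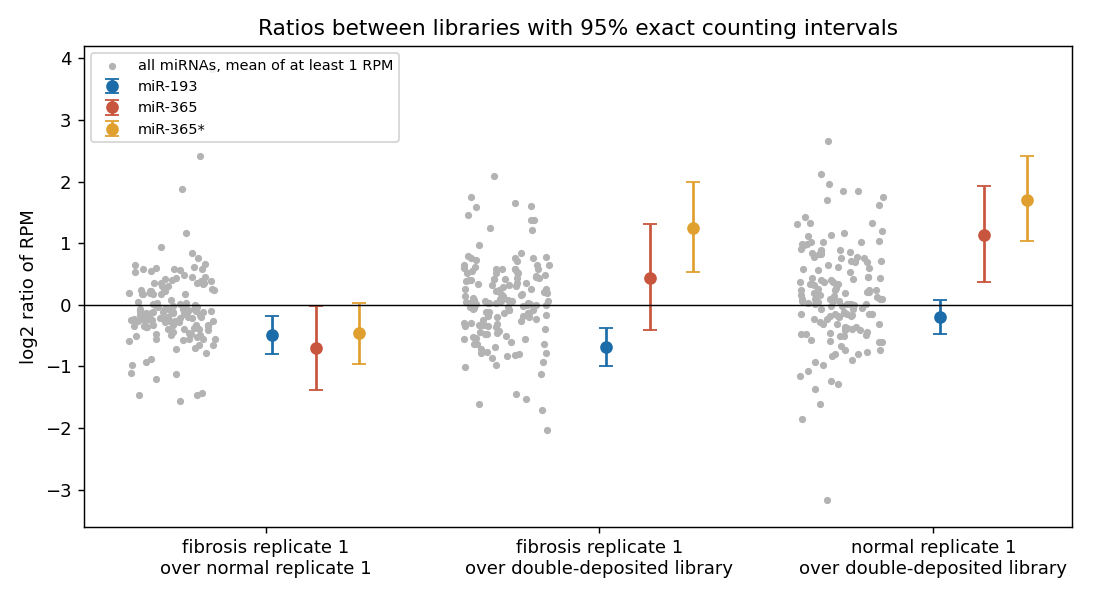
Log2 ratio of RPM (vertical axis) for each pair of distinct libraries, with grey points for all miRNAs of at least 1 RPM in mean, the members included and spread sideways for legibility, and coloured points with 95% exact counting intervals for the members. All 3 members sit below 0 in fibrosis replicate 1 over normal replicate 1, while miR-193 and the miR-365 arms lie on opposite sides of 0 in both pairs with the double-deposited library.

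The ratio of neighbours inside a library does not depend on how libraries are scaled. It compares reads of different mature sequences, with each read counted whether or not it stood for a separate molecule. There was no correction for length or for capture efficiency, which was not measured. miR-193 over miR-365 was 10.5 in the double-deposited library (6.69 to 17.3), 4.81 in fibrosis replicate 1 (3.25 to 7.33) and 4.18 in normal replicate 1 (3.06 to 5.79). The 2 libraries that each carry 1 label were thus close. The interval of the double-deposited library was separate from that of normal replicate 1 and overlapped that of fibrosis replicate 1 in part. Such overlap does not show that 2 libraries are alike, and the change in this ratio between libraries was not tested. With both miR-365 arms summed, the ratio was 4.89 in the double-deposited library (3.53 to 6.90), 1.60 in fibrosis replicate 1 (1.23 to 2.10) and 1.54 in normal replicate 1 (1.24 to 1.93), and the interval of the double-deposited library was separate from both others. The summed arms held 45 reads in the double-deposited library, 93 in fibrosis replicate 1 and 138 in normal replicate 1, and their level in fibrosis replicate 1 was 0.685 of that in normal replicate 1 (0.521 to 0.898).

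The arms of miR-365 ran against their names. miR-365* gave more reads than miR-365 in all 3 distinct libraries: its share of the reads of both arms was 66.7% in fibrosis replicate 1 (62 of 93 reads, interval 56.1 to 76.1), 63.0% in normal replicate 1 (87 of 138, 54.4 to 71.1) and 53.3% in the double-deposited library (24 of 45, 37.9 to 68.3). The first 2 intervals lay above 50% and the last included it. The 3 intervals overlapped, which does not show equal arm use, and differences in arm use between the libraries were not tested. The labels do not give the mature ends by which reads were assigned to an arm, and the 17-base RefSeq entry of miR-365* may differ from them, so the shares hold for the authors' own assignment.

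miR-193 kept the arm order that its names give. miR-193* had 11 reads in fibrosis replicate 1 (1.58 RPM), 12 reads in normal replicate 1 (1.70 RPM) and 11 reads in the double-deposited library (1.73 RPM). Its share of the reads of both miR-193 arms was 6.88% (3.48 to 12.0), 5.33% (2.79 to 9.13) and 4.76% (2.40 to 8.36) in that order. By name, most reads thus came from opposite arms, the 3′ arm for miR-193 and the 5′ arm for miR-365. The reads were assigned to names and not to the hairpins shown. The annotated miR-3549, whose 19 bases all overlap miR-193* on the other strand, had 0 reads in each library, which by the limit of 3 reads allows up to 0.432, 0.424 and 0.472 RPM in fibrosis replicate 1, normal replicate 1 and the double-deposited library. The exact interval of 0 reads reaches 0.531, 0.522 and 0.580 RPM there.

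A starred arm above its partner was uncommon among the hairpins. With at least 20 reads over both arms, it was seen for 11 of 71 hairpins in fibrosis replicate 1 (15.5%), 10 of 73 in normal replicate 1 (13.7%) and 9 of 70 in the double-deposited library (12.9%), and miR-365 was the last of these in each library by starred share. The median hairpin gave 0.00551%, 0.0967% and 0.0533% of its reads from the starred arm. In the pooled reads of the 3 libraries the starred share of miR-365 was 62.7% (173 of 276 reads, 56.7 to 68.4), between miR-505 at 67.4% (57.0 to 76.6) and miR-151 at 56.1% (46.5 to 65.4). Both neighbours had intervals that overlapped that of miR-365.

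**Figure D3:**
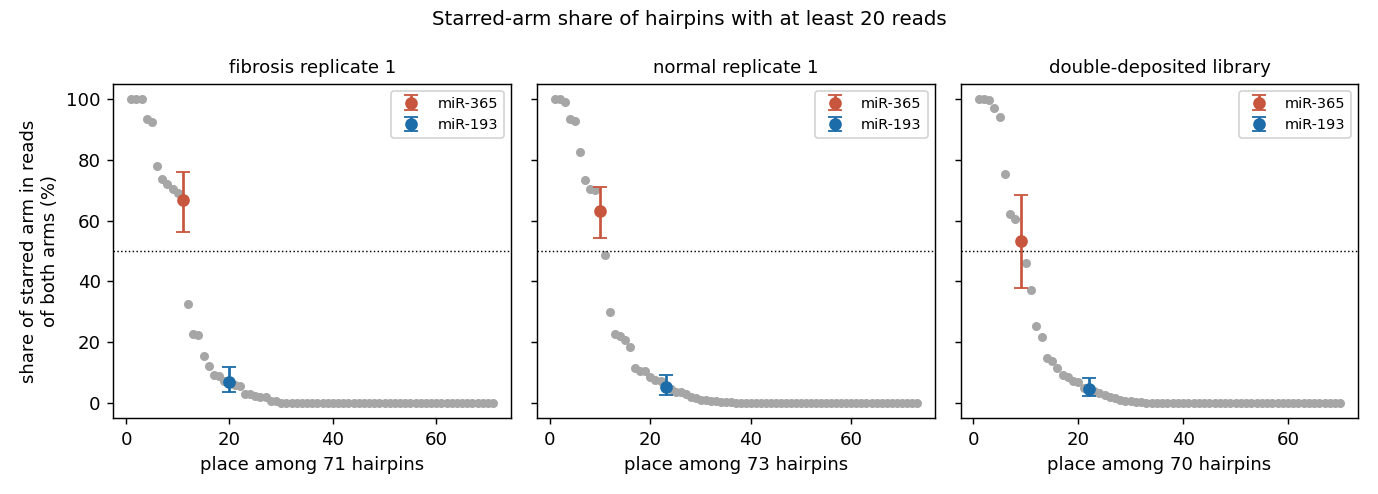
Share of the starred arm in the reads of both arms (vertical axis, %) for hairpins with at least 20 reads, ordered by that share (horizontal axis), in each distinct library. miR-365 lies above the dotted 50% line at 66.7%, 63.0% and 53.3%, and miR-193 near the base at 6.88%, 5.33% and 4.76%, with 95% exact counting intervals.

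The miRNAs of most similar pattern differed between the neighbours. Similarity was the distance in log2(RPM + 1) after subtracting each miRNA's own mean over the 3 distinct libraries, among the 73 miRNAs that averaged 10 RPM or more, and with 3 points it is a description. Nearest to miR-193 were miR-26b (distance 0.11), miR-30c-2* (0.14) and miR-31 (0.16). miR-26b, for example, had 656 RPM in the double-deposited library against 445 RPM in fibrosis replicate 1, with normal replicate 1 between them at 557 RPM. Nearest to miR-365 were miR-598-3p (0.23), the hepatocyte miRNA miR-194 (0.25) and the collagen repressor miR-29c (0.25). Nearest to miR-365* were miR-92a (0.20), miR-423* (0.36) and miR-10a-5p (0.42). The arms of miR-365 were 0.53 apart, and miR-193 was 0.88 from miR-365 and 1.39 from miR-365*, in places 55 and 61 among the 73 for these arms.

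**Figure D4:**
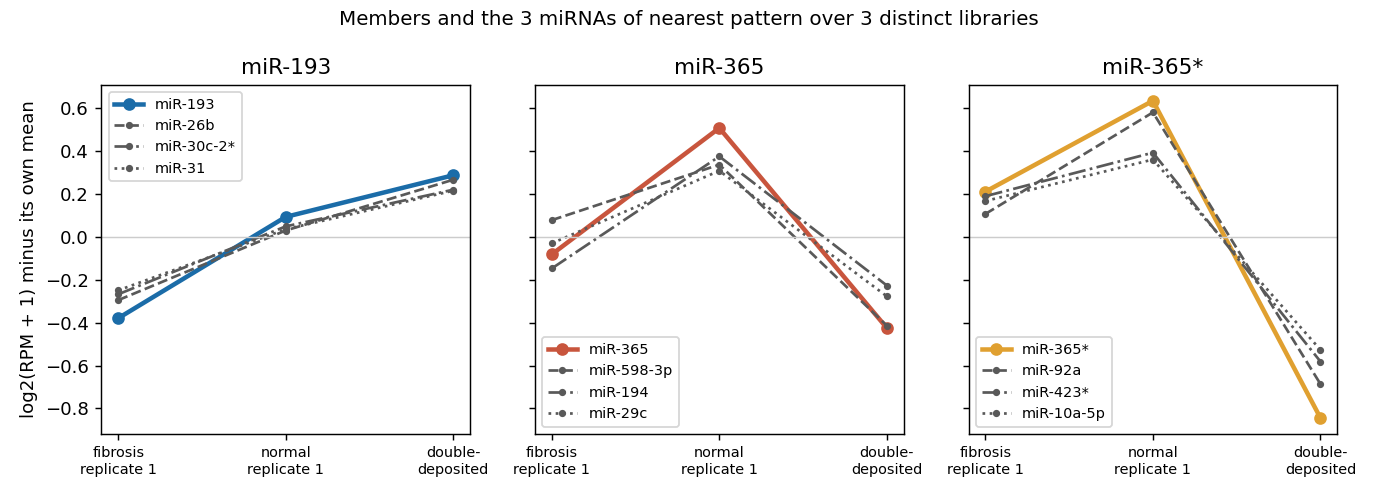
Log2(RPM + 1) minus its own mean over the 3 distinct libraries (vertical axis) for each member (coloured) and the 3 miRNAs of smallest distance to it (grey); the lines only join the points of a miRNA and imply no order. miR-193 and its nearest miRNAs are highest in the double-deposited library, and both miR-365 arms and theirs are lowest there.

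The miRNAs of a hepatocyte list were also lower in fibrosis replicate 1. Whether the members themselves mark hepatocytes was not tested. In this list of 6 (miR-122, miR-192, miR-194, miR-101a, miR-101b and miR-802), all 6 had ratios to normal replicate 1 below 1, 5 with intervals below 1, with a median of 0.813. Over all 147 miRNAs 95 (64.6%) were lower, 33 (22.4%) had intervals below 1, and the median was 0.916. miR-122, at 0.927 (0.925 to 0.929), lay above that median and the others of the list below it. Counting intervals narrow as reads rise, so the shares of intervals below 1 are not like for like. miR-194, cut from a primary transcript that also yields miR-192, had 72.1 RPM in normal replicate 1, against 49.9 RPM in fibrosis replicate 1 and 47.2 RPM in the double-deposited library. miR-101a had 211 RPM in normal replicate 1, 162 RPM in fibrosis replicate 1 and 201 RPM in the double-deposited library. In the double-deposited library miR-122 (247931 RPM) and miR-101b (1353 RPM) lay between the labelled libraries, as miR-101a did, and miR-192 (7492 RPM) lay below both, as miR-194 did. These miRNAs had no common order over the 3 libraries. miR-802 had 1.01, 1.27 and 0.629 RPM, and its interval included 1.

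A list of 22 miRNAs linked to fat cells lay on both sides. Of these, 15 averaged 1 RPM or more in the labelled pair, and in fibrosis replicate 1 relative to normal replicate 1 there were 4 higher and 11 lower, with a median ratio of 0.948. The share lower was 73.3% beside 64.6% over all 147 miRNAs. The intervals of 3 lay above 1 (miR-27a, miR-27b and miR-33) and those of 5 below 1 (miR-30b-5p, miR-143, miR-26a, miR-26b and miR-125b-5p), beside 20 (13.6%) above and 33 (22.4%) below among the 147. The most abundant were miR-26b at 0.798 (0.761 to 0.837), miR-103 at 1.02 (0.976 to 1.06) and miR-107 at 0.995 (0.951 to 1.04). miR-133a and miR-133b, which repress the brown fat regulator Prdm16, were at 0 in fibrosis replicate 1 and the double-deposited library and had 0.283 and 0.141 RPM in normal replicate 1. These are 2 reads and 1 read, under the limit of 3 reads, so the libraries cannot be told apart for them. The fat cell list shares miR-143 with the mesenchymal list used below and miR-133a with the striated muscle list.

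Markers of other cell types that a piece of liver can hold were summed in each library, and most of these sums varied. The summed level of 5 leukocyte miRNAs was 49.6 RPM for fibrosis replicate 1, 37.8 RPM for normal replicate 1 and 70.5 RPM for the double-deposited library, and that of 5 mesenchymal miRNAs was 669, 466 and 1009 RPM in the same order. miR-199a-3p alone held 592, 350 and 903 RPM of the mesenchymal sums, and miR-142-5p alone held 39.4, 26.4 and 56.0 RPM of the leukocyte sums. In fibrosis replicate 1 relative to normal replicate 1, 2 of the 5 mesenchymal miRNAs were higher and 3 lower. There was 1 interval above 1 (miR-199a-3p) and 2 below 1 (miR-143 and miR-145). Over all 147 miRNAs 64.6% were lower, 13.6% had intervals above 1 and 22.4% had intervals below 1. For 2 endothelial miRNAs the sums were 7.77, 6.51 and 10.9 RPM, for 2 erythroid miRNAs 2.88, 7.78 and 2.05 RPM, for 5 epithelial miRNAs 12.1, 11.9 and 8.65 RPM, and for 3 striated muscle miRNAs 2.30, 5.23 and 6.45 RPM. Between fibrosis replicate 1 and normal replicate 1, no endothelial or epithelial miRNA that averaged 1 RPM or more had an interval that excluded 1. The epithelial marker miR-141 was at 0 in fibrosis replicate 1 and normal replicate 1, and the defining erythroid miRNA miR-451 was present in all. The double-deposited library, which had the lowest miR-365 and miR-365*, had the highest leukocyte, mesenchymal, endothelial and striated muscle sums. Its erythroid and epithelial sums were the lowest, and it did not have the highest level of each marker. Of the mesenchymal miRNAs miR-199a-3p and miR-214 were highest there, miR-143 (91.2 RPM against 97.3 RPM in normal replicate 1) was not, and miR-145 and miR-199a-5p were lowest there. The leukocyte miRNAs miR-142-5p, miR-223, miR-150 and miR-146a were highest there, and miR-142-3p (0.629 RPM) was below its 0.707 RPM in normal replicate 1. Several of these orders rest on few reads. miR-223 had 8 reads there and 7 in fibrosis replicate 1, and miR-142-3p had 4 there and 5 in normal replicate 1. miR-146a had 69 reads both there and in normal replicate 1. The part of cell composition in the members' differences was not tested.

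With the 4 files entered as labelled, 0 members passed. limma on log2(RPM + 1) called 0% of 294 miRNAs at an adjusted p under 0.05, with 4 at an unadjusted p under 0.05, edgeR's quasi-likelihood test called 0 with 1, and DESeq2 called 0 with 0. The fitted log2 difference, fibrosis minus normal, was -0.24 for miR-193 (SE 0.35), -0.29 for miR-365 (SE 0.42) and -0.21 for miR-365* (SE 0.40), each with an adjusted p of 1 (limma, Benjamini-Hochberg). Since 1 library stands in both groups, each fitted difference is the mean of 0 and the difference between the other 2 libraries, and an exact permutation test of 2 against 2 could not go below 0.333. Counting the double-deposited library as normal alone turned miR-365* to 0.32 (SE 0.96), and leaving out fibrosis replicate 1 turned miR-193 to 0.097 (SE 0.46). Leaving out normal replicate 1 turned miR-365 to 0.17 (SE 0.47) and miR-365* to 0.53 (SE 0.47).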

How the data were processed

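Small RNA libraries were made from total RNA of rat liver with an Illumina kit, per the labels' protocols; CASAVA 1.4 and build rn5 come from the submitters' processing notes. For the aligner, the miRNA annotation and multiply matching reads, the choice is not given in the sources used here. The deposited values are RPM computed by the authors. Every value above 0 (100%) was a whole multiple of 1 read within 0.01 reads, and 50.5% to 52.5% of each scaling total lay on listed miRNAs. The column header of normal replicate 2 is not its sample title.

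Library ratios carry exact binomial intervals (Python 3.11.15, scipy 1.17.1). limma 3.58.1 with a mean-variance trend was run on log2(RPM + 1) over miRNAs above 0 in any file, and edgeR 4.0.16 and DESeq2 1.42.0 on recovered reads. The limma fit was tested on simulated data. Alternatives covered scaling, pseudocount, filters, test, the replicate block and leaving out files. Hairpins with X and X* both listed numbered 205. Besides members, the text names same-locus rows, hepatocyte and fat cell lists, nearest patterns and neighbours in level or arm share, with miRNAs of separate intervals in the fat list named after their values were seen. Members and lists were chosen with earlier results of these data known. Mature and hairpin sequences are from RefSeq, build GRCr8; the files give no coordinates.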

Additional observations from a re-analysis of the deposited data

How the results depend on the processing

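The 45 ratios of the 3 members between library pairs under 5 other scalings kept their direction and stayed within the counting interval of the deposited RPM; for the pairs with the double-deposited library these scalings were chosen after seeing the data. Adding 1 or 10 RPM kept the direction of the 3 ratios of fibrosis replicate 1 to normal replicate 1. The count of called miRNAs stayed 0 under all 15 alternatives. The fitted differences turned sign only on leaving out or reassigning files: leaving out 1 file at a time gave -0.57 to 0.097 for miR-193, -0.76 to 0.17 for miR-365 and -0.95 to 0.53 for miR-365*, and miR-365* was at 0.32 with the identical file counted once, as normal. Counting the identical file once, as fibrosis or as normal, is the same fit as leaving out its other copy, so these alternatives are not separate. Without fibrosis replicate 1 or normal replicate 1 the double-deposited library stands on both sides, and lone files are assumed to vary like the other group. With the replicate number as a block, limma called 0 and the differences stayed at -0.24, -0.29 and -0.21 (adjusted p of 0.602 each). Same-numbered files deviated together (r = 0.683), as the identical files must, so the block shows no pairing. With 100 reads as the minimum miR-365 ranked 4 of 43 hairpins in normal replicate 1, and its 93 and 45 reads in the other libraries gave no rank. Summing both miR-365 arms moved miR-193 over miR-365 to 1.60, 1.54 and 4.89 in fibrosis replicate 1, normal replicate 1 and the double-deposited library. Counts of 21 to 87 reads limit both miR-365 arms.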

Other observations

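Among 67 hairpins with at least 20 reads over both arms in each of the 3 distinct libraries, 9 gave more reads from the starred arm in all of them: miR-126, miR-140, miR-28, miR-322, miR-365, miR-423, miR-455, miR-505 and miR-511. In the pooled reads these ranged from 17724 of 17725 reads for miR-140 to 173 of 276 for miR-365. miR-365 and miR-505 (64 of 95 reads, 67.4%) were the most evenly divided of the 9. The hepatocyte miRNA miR-802 also gave more reads from its starred arm in the pooled libraries, 54 of 74 (73.0%, 61.4 to 82.6).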
